A study of Homo sapiens with 4 samples.

Results

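To examine how Efp silencing bears on the genes of mitochondrial complex I, 47 genes of the 18417 measured genes were followed in endometrial cancer cells. The members were chosen by symbol, as every gene beginning with NDUFA, NDUFB, NDUFC, NDUFS, NDUFV or NDUFAF, together with DMAC1, DMAC2, ECSIT, ACAD9 and TMEM126B, and only probe sets annotated with exactly 1 gene symbol were used. They comprise 34 subunits, 12 assembly factors and NDUFV1-DT, a divergent non-coding transcript beside NDUFV1. Efp, encoded by TRIM25, is an estrogen-responsive RING-finger ubiquitin ligase. It was silenced by siRNA (siEfp) and compared with a negative control siRNA (siControl) in human Ishikawa cells, which the study describes as ERα-positive, and HEC-1A cells, described as ERα-negative. Both are established lines, grown in DMEM with fetal bovine serum. One array was hybridised for each of the 4 conditions, Ishikawa siEfp, Ishikawa siControl, HEC-1A siEfp and HEC-1A siControl. The methods give siEfp #A and 48 h of treatment for Ishikawa, and no source used here gives the duplex or the time for HEC-1A. No condition was repeated, so differences within a line have no replicate error.

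Complex I (NADH:ubiquinone oxidoreductase) is the entry point of electrons from NADH into the respiratory chain. Its matrix arm holds the N module, which oxidises NADH at a flavin, and the Q module, which passes the electrons along iron-sulfur clusters to ubiquinone. Its membrane arm pumps protons and is built around subunits encoded by mitochondrial DNA, which were not analysed here, and many accessory subunits encoded in the nucleus. Assembly factors join the modules in a fixed order and are absent from the finished enzyme. Mutations of mitochondrial DNA are frequent in endometrial carcinomas.

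All values are log2 RMA signals, the robust multi-array averages in which a step of 1 stands for a doubling, and each difference is siEfp minus siControl on that scale. TRIM25 had a signal of 7.96 with siEfp against 9.42 with siControl in Ishikawa cells, and 7.93 with siEfp against 9.50 with siControl in HEC-1A cells. The target transcript was lower on both siEfp arrays, with differences of -1.46 and -1.57 (adjusted p over both lines = 0.0342, limma). Array medians lay between 5.63 and 5.69, and the siEfp and siControl arrays of a line correlated at 0.992 in Ishikawa and 0.993 in HEC-1A cells, against 0.956 to 0.958 between arrays of different lines. The keratin genes KRT8, KRT18 and KRT19 of epithelial cells had signals of 8.60 or more on all 4 arrays. The epithelial adhesion genes EPCAM (11.24 with siEfp and 11.24 with siControl in Ishikawa, 7.05 with siEfp and 7.26 with siControl in HEC-1A cells) and CDH1 (9.62 with siEfp and 10.22 with siControl in Ishikawa, 3.74 with siEfp and 4.07 with siControl in HEC-1A cells) were much lower in HEC-1A. ESR1, which encodes ERα, had 6.65 with siEfp and 6.91 with siControl in Ishikawa, and 4.77 with siEfp and 4.45 with siControl in HEC-1A cells. PGR, the other estrogen response marker examined, had dim signals of 3.22 to 3.26 on all 4 arrays and did not set the lines apart. Of the stromal, endothelial and immune markers DCN, PECAM1 and PTPRC had signals of 3.32 or less on every array, and COL1A1 (6.37 to 7.40) and CD68 (5.58 to 7.26) were the highest.

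More complex I genes were higher than lower with siEfp in each line, mostly by small amounts, while 1 assembly factor, DMAC2, was far lower in both. In Ishikawa cells 30 of the 47 members were higher with siEfp than with siControl, against 52.2% of all genes, and the median difference was 0.12, against 0.013 over all genes. In HEC-1A cells 31 members were higher, against 52.1% of all genes, with a median of 0.089 against 0.010. In both lines 21 members were higher, against 31.1% of all genes, and 7 were lower, against 26.7%. The remaining 19 members had opposite signs in the 2 lines. These gene sets were selected with earlier results of the same arrays known, among them a positive median of a list of oxidative phosphorylation genes, so the common direction is a description of these 4 arrays only.

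Subunits and assembly factors were then taken apart. Of the 34 subunits, 27 were higher with siEfp in Ishikawa cells (median 0.164) and 23 in HEC-1A cells (median 0.124), and 19 were higher in both lines. Of the 12 assembly factors only 2, ECSIT and NDUFAF1, were higher with siEfp in Ishikawa cells (median -0.081), while 7 were higher in HEC-1A cells (median 0.056). Genes of similar signal were also examined. Of the 4589 genes whose mean signal lay between 7.73 and 10.0, the quartiles of the members, 43.4% were higher with siEfp in Ishikawa (median -0.044) and 55.6% in HEC-1A cells (median 0.028). No test was made of these medians, since genes of 1 array are not replicates.

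**Figure D1:**
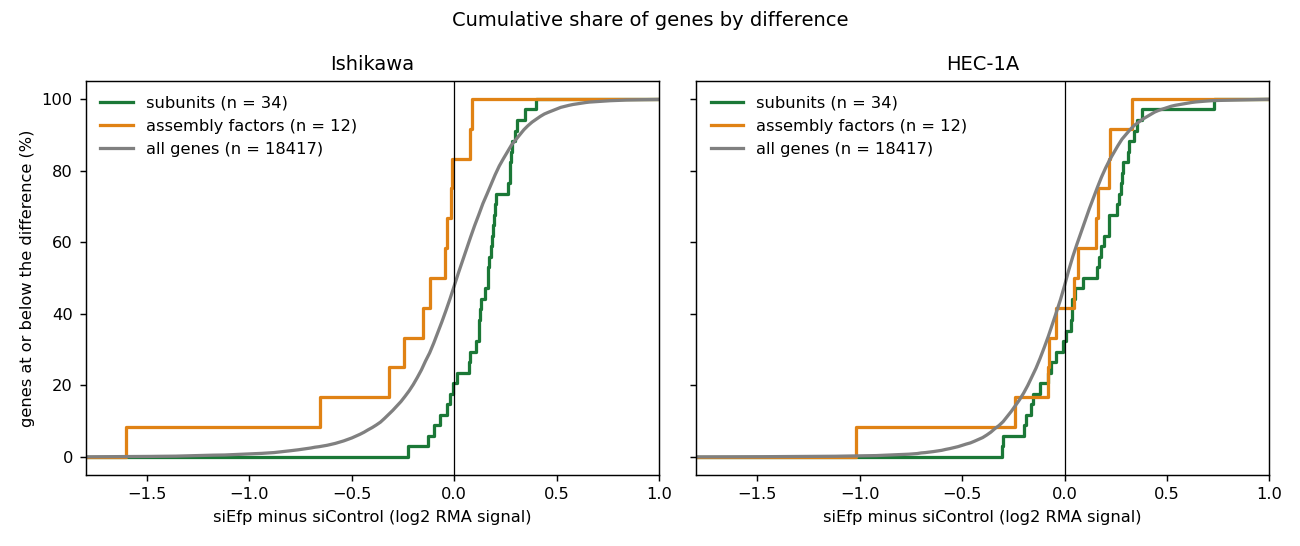
Cumulative share of genes (vertical axis, %) at or below each difference of siEfp minus siControl (horizontal axis, log2 RMA signal) in Ishikawa (left) and HEC-1A cells (right), for 34 subunits, 12 assembly factors and all 18417 genes. In Ishikawa cells the curve of the subunits lies to the right of all genes over most of its course, with a median of 0.164, and that of the assembly factors to the left, with a median of -0.081.

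Differences of at least 0.32 on the log2 scale, which is 25% up or 20% down, were few. In Ishikawa cells NDUFB7 and NDUFV2 were that much higher with siEfp, 2 members, against 9.81% of all genes, and DMAC2 and NDUFAF7 that much lower, 2 members, against 11.7% of all genes. In HEC-1A cells 5 members were higher by that measure (DMAC1, NDUFA1, NDUFB5, NDUFS6 and NDUFS7), against 8.42% of all genes, and 1, DMAC2, was lower, against 8.7%. No member was higher by that much in both lines (0 of 47, against 2.0% of all genes), and DMAC2 was the 1 member lower in both, against 3.53% of all genes. The other members lay within that range, 43 of 47 in Ishikawa and 41 of 47 in HEC-1A cells. In a limma fit that held all 4 arrays and a term for the line, 0 members passed an adjusted p of 0.05 for siEfp over siControl, against 30 genes or 0.163% of all genes. At an unadjusted p under 0.05 there were 5 members (DMAC2, NDUFS7, NDUFB7, NDUFB5 and NDUFB3), against 2205 genes or 12.0% of all genes. That fit has 1 residual degree of freedom and takes the 2 lines as repeats of each other.

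**Figure D2:**
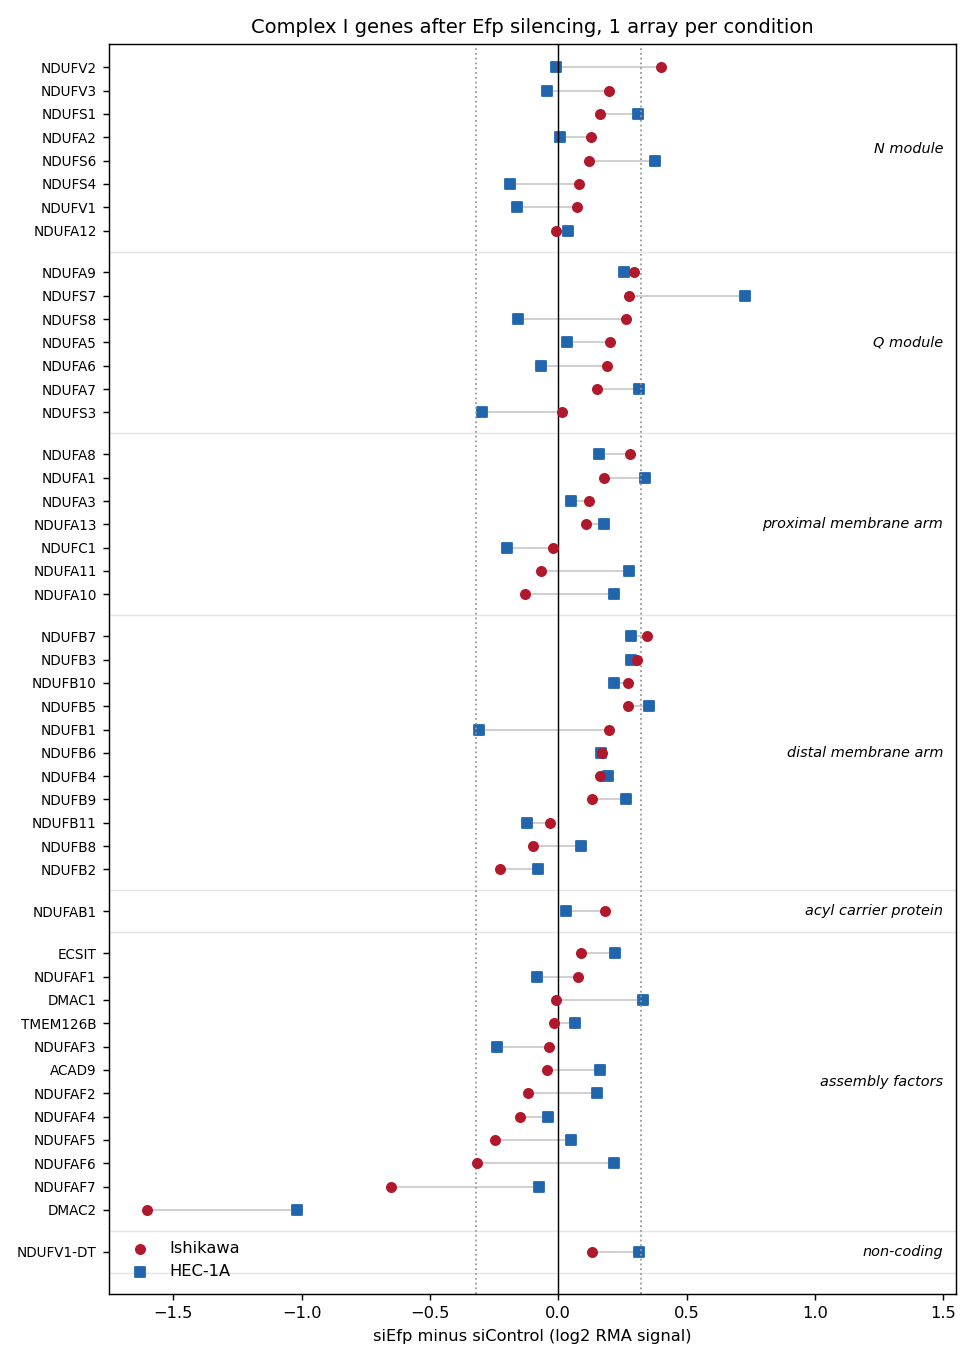
Difference of siEfp minus siControl (horizontal axis, log2 RMA signal) for each of the 47 members, grouped by module and ordered by the value in Ishikawa cells, with circles for Ishikawa and squares for HEC-1A and dotted lines at 0.32 up and down. Nearly all points lie between the dotted lines, and DMAC2 stands alone at -1.60 in Ishikawa and -1.02 in HEC-1A cells.

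DMAC2, a factor of the distal membrane arm named for that step of assembly, had the lowest difference of all members in both lines. Its signal was 8.09 with siEfp against 9.70 with siControl in Ishikawa cells, and 8.19 with siEfp against 9.21 with siControl in HEC-1A cells. Both siEfp arrays lay below both siControl arrays, and the levels with siEfp were close in the 2 lines. It was 3.04-fold lower with siEfp in Ishikawa and 2.03-fold lower in HEC-1A cells. Of all genes, 0.0977% in Ishikawa and 0.348% in HEC-1A cells differed from siControl by as much in either direction. The fall of DMAC2 was larger than that of TRIM25 itself in Ishikawa cells (-1.46) and smaller in HEC-1A cells (-1.57). With 1 siEfp array per line, loss of Efp cannot be told apart from other effects of the siRNA duplex, which were not tested. Over both lines the difference of DMAC2 was -1.31 ± 0.17 (SE, limma), with an adjusted p of 0.0698, so it did not pass the threshold. It was past the threshold without the genes below the median signal (adjusted p = 0.000402) and with an intensity trend (0.0145), and the adjusted p ranged from 0.000402 to 1.0 over the alternatives, the highest without the cell line term. The difference stayed at -1.31 in both settings that passed, with an SE of 0.15. The share of all genes called in those settings is not given here. The RefSeq promoter window of DMAC2, 250 bases before to 50 after the annotated start, lies at chr19:41439488-41439787 on the minus strand of GRCh38.p14 and is shown because its gene had the largest difference. Windows were searched on both strands for 5 sets of letters, the NRF1 core GCGCATGCG, the ETS core CCGGAAG (bound by GABPA among others), the YY1 core AAGATGGCG, the ERR half-site TCAAGGTCA and the E-box CACGTG (bound by MYC among others). None of these letters occurs in the window of DMAC2, which is therefore all in lower case.
DMAC2: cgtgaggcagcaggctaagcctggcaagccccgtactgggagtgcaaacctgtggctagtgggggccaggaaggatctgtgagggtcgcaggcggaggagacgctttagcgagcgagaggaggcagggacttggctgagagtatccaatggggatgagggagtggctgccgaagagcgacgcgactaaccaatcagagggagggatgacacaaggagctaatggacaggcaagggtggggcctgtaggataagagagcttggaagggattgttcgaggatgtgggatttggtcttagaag

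The other assembly factors showed smaller and less uniform differences. NDUFAF7, a methyltransferase, had 6.76 with siEfp against 7.42 with siControl in Ishikawa cells, and 7.99 with siEfp against 8.07 with siControl in HEC-1A cells. It was thus 1.57-fold lower in Ishikawa, a distance from 0 that 3.86% of all genes reached in either direction, while in HEC-1A the difference was -0.08. NDUFAF5, which hydroxylates an arginine of NDUFS7, had 7.10 with siEfp against 7.35 with siControl in Ishikawa, and 7.0 with siEfp against 6.95 with siControl in HEC-1A cells. NDUFAF6 had 6.61 with siEfp against 6.93 with siControl in Ishikawa, and 6.72 with siEfp against 6.51 with siControl in HEC-1A cells, so its sign differed between the lines, and its Ishikawa difference of -0.317 fell just short of the limit used for the counts. DMAC1, another factor of the distal membrane arm, had 10.55 with siEfp against 10.56 with siControl in Ishikawa cells and 10.85 with siEfp against 10.52 with siControl in HEC-1A cells, the highest difference of any assembly factor in HEC-1A (0.33). NDUFAF3 and NDUFAF4, which act together in building the Q module, were lower with siEfp in both lines, except after a second quantile normalization, where NDUFAF3 in Ishikawa (0.006) and NDUFAF4 in HEC-1A cells (0.013) were above 0. NDUFAF3 had 8.93 with siEfp against 8.96 with siControl in Ishikawa and 8.93 with siEfp against 9.17 with siControl in HEC-1A cells, and NDUFAF4 had 10.96 with siEfp against 11.11 with siControl in Ishikawa and 11.22 with siEfp against 11.26 with siControl in HEC-1A cells. The 4 members that encode proteins of the MCIA complex, which assembles part of the membrane arm (NDUFAF1, ECSIT, ACAD9 and TMEM126B), had differences between -0.04 and 0.09 in Ishikawa and between -0.08 and 0.22 in HEC-1A cells. These 4 are not the whole complex. Its proteins COA1 and TMEM186, which the symbol rule leaves out, were further from 0 in Ishikawa cells (-0.61 and -0.51), with -0.12 and 0.37 in HEC-1A cells. NDUFAF2, a late factor present while the N module joins, had -0.12 in Ishikawa and 0.15 in HEC-1A cells on a dim signal of 5.78 to 5.97. Its 2 probe sets both lay below siControl in Ishikawa and above it in HEC-1A cells.

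**Figure D3:**
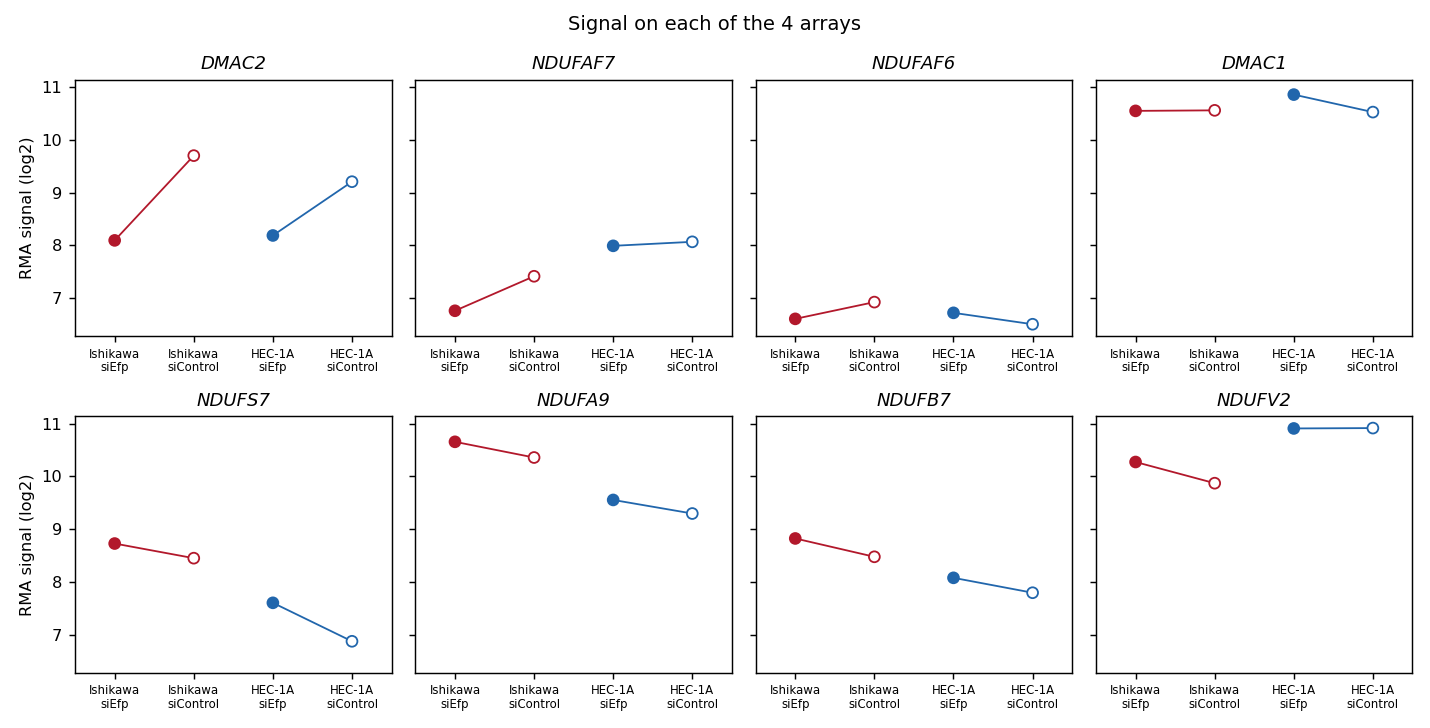
Signal (vertical axis, log2 RMA) of 8 members on each of the 4 arrays, with filled points for siEfp and open points for siControl, and lines joining the arrays of a cell line. DMAC2 is low on both siEfp arrays, NDUFAF7 on the Ishikawa siEfp array among the Ishikawa pair, and NDUFS7, NDUFA9 and NDUFB7 are higher with siEfp in both lines.

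In the N module, where NADH is oxidised, 7 of 8 subunits were higher with siEfp in Ishikawa cells (median 0.123) and 4 of 8 in HEC-1A cells (median -0.001). NDUFV2, a subunit with an iron-sulfur cluster, had 10.27 with siEfp against 9.87 with siControl in Ishikawa, the highest difference of any member there (1.32-fold), and 10.91 with siEfp against 10.91 with siControl in HEC-1A cells. Both of its probe sets gave this pattern, with 0.43 and 0.38 in Ishikawa and 0.00 and -0.01 in HEC-1A cells. NDUFV1, the flavin-binding subunit, had 0.07 in Ishikawa and -0.16 in HEC-1A cells. NDUFS1, the largest subunit of the module, had 9.57 with siEfp against 9.40 with siControl in Ishikawa and 9.44 with siEfp against 9.14 with siControl in HEC-1A cells, higher in both. NDUFS6, an accessory subunit, had 8.39 with siEfp against 8.27 with siControl in Ishikawa and 8.30 with siEfp against 7.93 with siControl in HEC-1A cells. NDUFS4, whose loss in humans causes Leigh syndrome, was read by 2 probe sets that disagreed in sign in Ishikawa cells. Their mean was 6.06 with siEfp against 5.98 with siControl in Ishikawa and 5.87 with siEfp against 6.06 with siControl in HEC-1A cells. The brighter one gave 0.18 in Ishikawa but -0.31 in HEC-1A cells, whereas the dimmer one, at a signal of 3.80 or less, gave -0.02 and -0.07.

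In the Q module all 7 measured subunits were higher with siEfp in Ishikawa cells (median 0.203, from 0.02 to 0.30), and 4 of 7 in HEC-1A cells (median 0.034). NDUFS7, which carries the last iron-sulfur cluster before ubiquinone, had the highest difference of any member in HEC-1A cells. Its signal was 8.73 with siEfp against 8.45 with siControl in Ishikawa cells, and 7.61 with siEfp against 6.88 with siControl in HEC-1A cells. The HEC-1A difference was 1.66-fold, as far from 0 as 1.35% of all genes in either direction, and that in Ishikawa 1.21-fold. Over both lines it was 0.50 ± 0.15 (SE, limma) with an adjusted p of 0.269, and the adjusted p ranged from 0.0504 to 1.0 over the alternatives. NDUFA9, an accessory subunit near the junction of the arms, had 10.65 with siEfp against 10.36 with siControl in Ishikawa and 9.56 with siEfp against 9.30 with siControl in HEC-1A cells, 1.23-fold and 1.20-fold. NDUFA7 had 9.90 with siEfp against 9.75 with siControl in Ishikawa and 9.92 with siEfp against 9.60 with siControl in HEC-1A cells. NDUFS3 went the other way in HEC-1A, with 10.09 for siEfp against 10.39 for siControl, and was within 0.02 in Ishikawa cells (10.44 with siEfp against 10.42 with siControl). NDUFS8, another iron-sulfur subunit, had 0.27 in Ishikawa and -0.16 in HEC-1A cells. The promoter windows of NDUFS7 (chr19:1383657-1383956, plus strand) and NDUFA9 (chr12:4648864-4649163, plus strand) of GRCh38.p14 are shown since both genes were higher with siEfp in both lines and were also the subunits that separated the lines most. Capitals mark, in the NDUFS7 window from left to right, the E-box, the NRF1 core on the minus strand and the YY1 core, and in the NDUFA9 window the YY1 core.
NDUFS7: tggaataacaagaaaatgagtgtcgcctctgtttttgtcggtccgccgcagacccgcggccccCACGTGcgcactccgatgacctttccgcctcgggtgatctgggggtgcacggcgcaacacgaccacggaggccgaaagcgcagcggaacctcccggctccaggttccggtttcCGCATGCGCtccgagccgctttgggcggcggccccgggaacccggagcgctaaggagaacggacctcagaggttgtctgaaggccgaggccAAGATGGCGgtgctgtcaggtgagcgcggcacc
NDUFA9: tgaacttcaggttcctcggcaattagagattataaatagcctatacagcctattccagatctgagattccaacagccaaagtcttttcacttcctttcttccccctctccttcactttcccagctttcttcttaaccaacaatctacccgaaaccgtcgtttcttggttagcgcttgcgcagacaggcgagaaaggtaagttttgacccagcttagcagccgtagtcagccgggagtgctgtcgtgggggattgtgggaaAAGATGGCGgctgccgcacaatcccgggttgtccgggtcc

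Of the membrane arm, 7 measured subunits belong to the proximal part, of which 4 were higher with siEfp in Ishikawa and 6 in HEC-1A cells (medians 0.108 and 0.177). NDUFA8, which faces the intermembrane space, had 10.03 with siEfp against 9.74 with siControl in Ishikawa and 9.84 with siEfp against 9.68 with siControl in HEC-1A cells. NDUFA1 had 10.02 with siEfp against 9.84 with siControl in Ishikawa and 10.01 with siEfp against 9.67 with siControl in HEC-1A cells. NDUFA11 had 8.67 with siEfp against 8.74 with siControl in Ishikawa and 8.02 with siEfp against 7.75 with siControl in HEC-1A cells, so the lines differed in sign. NDUFC1 had 8.72 with siEfp against 8.74 with siControl in Ishikawa and 8.14 with siEfp against 8.34 with siControl in HEC-1A cells. In the distal part 8 of 11 subunits were higher with siEfp in each line (medians 0.171 and 0.193), and 7 were higher in both. NDUFB7, NDUFB3 and NDUFB5 were among these 7. NDUFB7 had 8.83 with siEfp against 8.48 with siControl in Ishikawa and 8.08 with siEfp against 7.80 with siControl in HEC-1A cells. NDUFB3 had 8.57 with siEfp against 8.26 with siControl in Ishikawa and 7.84 with siEfp against 7.55 with siControl in HEC-1A cells. NDUFB5 had 10.99 with siEfp against 10.72 with siControl in Ishikawa and 10.23 with siEfp against 9.88 with siControl in HEC-1A cells. These 3 genes were 1.21-fold to 1.28-fold higher in each line, and their adjusted p over both lines lay between 0.383 and 0.403. NDUFB2 was lower with siEfp in both lines (7.0 with siEfp against 7.22 with siControl in Ishikawa, 7.55 with siEfp against 7.63 with siControl in HEC-1A cells), and NDUFB1 was split, with 7.17 with siEfp against 6.98 with siControl in Ishikawa and 6.54 with siEfp against 6.85 with siControl in HEC-1A cells. The window of NDUFB7, at chr19:14572017-14572316 on the minus strand of GRCh38.p14, is shown as that of the distal subunit with the highest difference in Ishikawa cells, and capitals mark its ETS core.
NDUFB7: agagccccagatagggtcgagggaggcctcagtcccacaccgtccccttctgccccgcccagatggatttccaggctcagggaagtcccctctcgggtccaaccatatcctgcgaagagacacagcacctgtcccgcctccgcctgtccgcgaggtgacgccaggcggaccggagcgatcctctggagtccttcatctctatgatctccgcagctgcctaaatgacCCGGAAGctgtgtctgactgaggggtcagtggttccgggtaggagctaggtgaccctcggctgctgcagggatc

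Across the members, 44 had a RefSeq promoter window and 7 of these had several, which gave 56 windows of 300 bases. NDUFAF6, NDUFB5 and NDUFB9 had none in the table. The NRF1 core, the letters read by nuclear respiratory factor 1, lay in 6 windows (10.7%, against 1.92% of 35116 windows of all genes), those of NDUFA5, NDUFA8, NDUFAF5, NDUFB4, NDUFS6 and NDUFS7. These letters are almost their own reverse complement, so that 3 of the windows match on both strands at 1 site. The YY1 core also lay in 6 windows (10.7%, against 1.75%), those of NDUFA6, NDUFA7, NDUFA9, NDUFB8, NDUFS4 and NDUFS7, each time 11 to 26 bases after the start. The ETS core lay in 7 windows (12.5%, against 10.26%), the E-box in 5 (8.9%, against 7.26%) and the ERR half-site in 0 (against 0.35%). In all 18 members had an NRF1, ETS or YY1 core and 24 had none of the 5 sets of letters. Both groups hold members that were higher and members that were lower with siEfp. Among the assembly factors DMAC1, NDUFAF4 and NDUFAF5 had an ETS or NRF1 core, and ACAD9 had an E-box. The other assembly factors with a window, DMAC2 among them, had none of the letters. A match is a description of the letters, and whether a factor binds there was not measured.

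**Figure D4:**
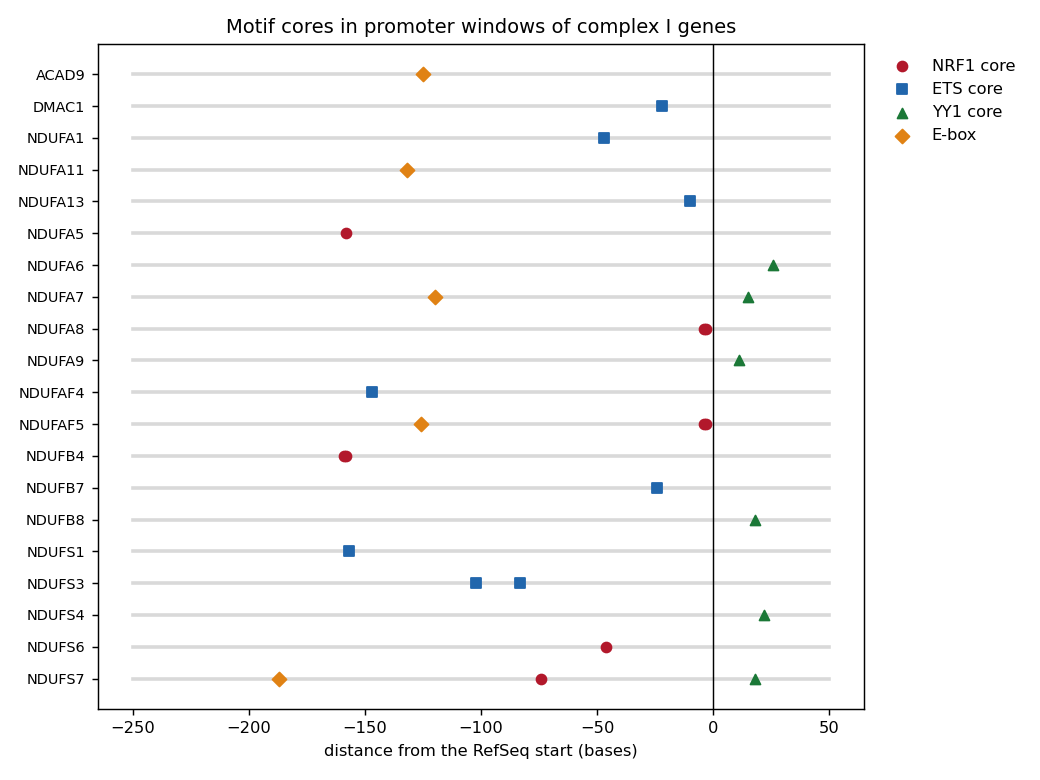
Position of the motif letters (horizontal axis, bases from the RefSeq start, negative before it) in the promoter windows of the 20 members that hold at least 1 of them. Grey bars are the windows, circles the NRF1 core, squares the ETS core, triangles the YY1 core and diamonds the E-box, and the YY1 core sits 11 to 26 bases after the start in all 6 windows that hold it.

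The lines themselves were then compared. Over the 2 arrays of each line, 34 of 47 members were higher in Ishikawa than in HEC-1A cells, against 47.9% of all genes. In 22 members both Ishikawa arrays lay above both HEC-1A arrays, against 30.1% of all genes, and in 7 members both lay below, against 32.6% of all genes. In the limma fit with the siRNA as a term, 13 members were higher in Ishikawa at an adjusted p under 0.05, against 17.0% of all genes, and 6 were lower, against 18.3% of all genes. All 13 are subunits, 4 of the Q module (NDUFS7, NDUFA9, NDUFA6 and NDUFA5), 1 of the N module (NDUFA2), 3 of the proximal and 5 of the distal membrane arm. Of the 6 that were lower in Ishikawa, NDUFAF7, NDUFAF1 and TMEM126B are assembly factors and NDUFV2, NDUFV3 and NDUFB2 are subunits. NDUFS7 differed most, by 1.35 ± 0.15 (SE, adjusted p = 0.000764), a 2.55-fold difference. NDUFA9 was higher by 1.08 ± 0.12 (adjusted p = 0.00079). NDUFA2, a small N-module subunit with a thioredoxin-like fold, had 10.35 with siEfp and 10.23 with siControl in Ishikawa, against 9.38 with siEfp and 9.38 with siControl in HEC-1A cells, a difference of 0.91 ± 0.12. NDUFA6 had 10.95 with siEfp and 10.76 with siControl in Ishikawa, against 9.97 with siEfp and 10.04 with siControl in HEC-1A cells, a difference of 0.85 ± 0.13. NDUFA11, NDUFB5, NDUFB3 and NDUFB7 were higher by 0.82, 0.80, 0.72 and 0.71. Among the lower members NDUFAF7 differed by -0.94 ± 0.17 and NDUFV2 by -0.84 ± 0.14. DMAC2 did not pass, at 0.20 ± 0.17 (adjusted p = 0.427).

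These calls rest on few arrays. Fits with 1 array left out could not hold the siRNA term, which would have used up the last degree of freedom, and in them the lone array of a line is assumed to vary like the other line. All 4 arrays without that term gave 11 members called higher in Ishikawa, against 13.9% of all genes, and 6 lower, against 14.1%. The number called higher was then 4 without the Ishikawa siEfp array (10.6% of all genes), 10 without Ishikawa siControl (10.6%), 5 without HEC-1A siEfp (7.84%) and 4 without HEC-1A siControl (7.69%). The number called lower was 2 without Ishikawa siEfp (8.85% of all genes), 2 without Ishikawa siControl (10.7%), 0 without HEC-1A siEfp (6.43%) and 0 without HEC-1A siControl (6.88%). NDUFA2 and NDUFA9 were called in 4 of these 4 fits, NDUFA11, NDUFA6 and NDUFS7 in 3, NDUFB5 and NDUFV2 in 2 and NDUFAF7 in 1. No source used here says whether the arrays of both lines were handled together, so a batch that follows the line cannot be told apart from it.

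**Figure D5:**
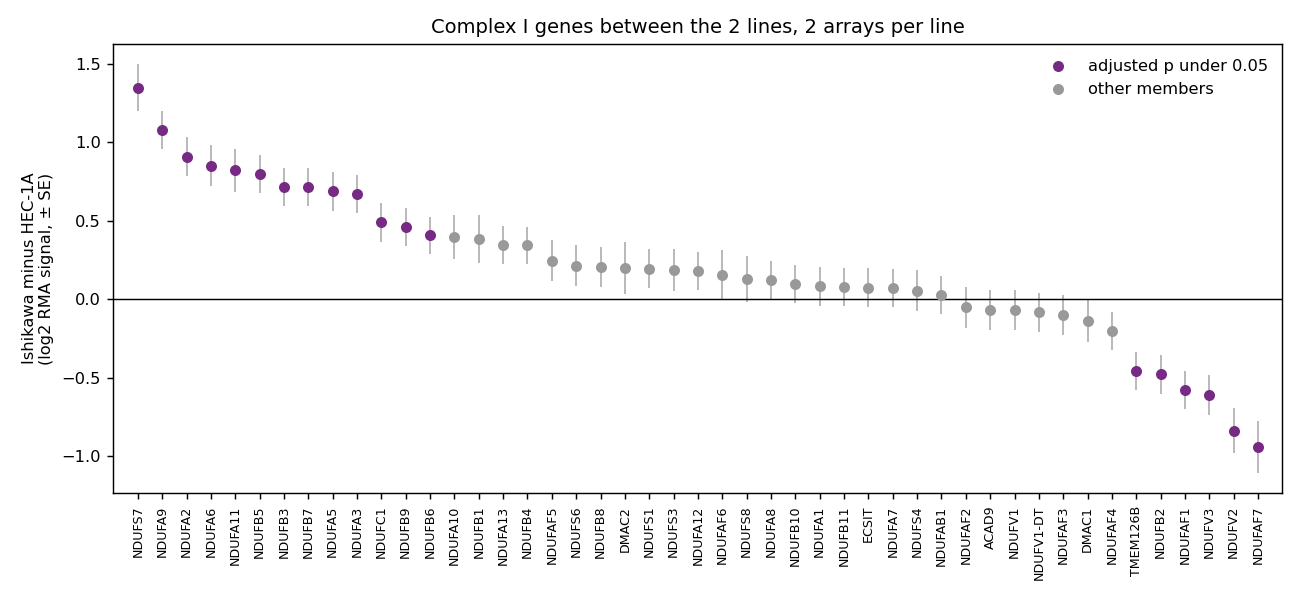
Difference of Ishikawa minus HEC-1A (vertical axis, log2 RMA signal, with the standard error of the limma fit over 4 arrays as bars) for each member in descending order. Purple points passed an adjusted p of 0.05, 13 of them above 0, led by NDUFS7 at 1.35, and 6 below, ending with NDUFAF7 at -0.94.

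The difference between Ishikawa and HEC-1A cells in the siEfp response itself could not be tested, since an interaction term leaves no residual degree of freedom. Across the 47 members the differences in the 2 lines, which share no array, correlated at r = 0.61, a description over genes. Without DMAC2 the value was 0.26 over 46 members, and over all genes it was 0.33. Of the 19 members with opposite signs, 9 were higher in Ishikawa and lower in HEC-1A cells and 10 the reverse, and NDUFAF6 was the 1 member that differed from siControl by at least 0.2 each way.

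Other genes of complex I assembly that the symbol rule leaves out were mixed. TIMMDC1, which helps to build the part around the mitochondrial subunit ND1, had 10.28 with siEfp against 10.97 with siControl in Ishikawa and 10.70 with siEfp against 11.26 with siControl in HEC-1A cells (differences of -0.69 and -0.56). FOXRED1 had 8.53 with siEfp against 8.03 with siControl in Ishikawa and 8.88 with siEfp against 8.34 with siControl in HEC-1A cells (differences of 0.50 and 0.54). TMEM70, known for assembly of the ATP synthase, was at 0.60 in Ishikawa and 0.33 in HEC-1A cells. COA1 was at -0.61 in Ishikawa and -0.12 in HEC-1A cells. Of this list of 7 genes 4 were higher in each line, and 0 passed the adjusted p of the siEfp fit, where TIMMDC1 had 0.139 and FOXRED1 0.188.

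The other respiratory complexes and the mitochondrial ribosome give a scale for the subunits. The 37 genes of complexes II to V had medians of 0.038 in Ishikawa (24 higher) and 0.105 in HEC-1A cells (21 higher), with 10 of 11 complex IV genes but 3 of 8 complex III genes higher in Ishikawa cells. The 74 genes of mitochondrial ribosomal proteins had medians of 0.058 and 0.085, with 47 higher in each line. Between the lines the complexes II to V had 13 of 37 genes called higher in Ishikawa and 1 lower, against 17.0% and 18.3% of all genes. Their median was 0.34, against 0.28 for the 34 complex I subunits and 0.18 for all 47 members. The mitochondrial ribosomal proteins had 10 of 74 genes called higher and 15 lower, with a median of -0.07. No test of complex I against these lists was made.

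Known regulators of respiratory genes had mostly small differences with siEfp, and none of the 12 passed the test. PPARGC1A, which encodes the coactivator PGC-1α, had 9.61 with siEfp against 9.14 with siControl in Ishikawa and 3.87 with siEfp against 3.87 with siControl in HEC-1A cells. It was far higher in Ishikawa, with a difference between the lines of 5.50 ± 0.15. MYC had 8.67 with siEfp against 9.67 with siControl in Ishikawa and 10.48 with siEfp against 10.67 with siControl in HEC-1A cells. TFAM, which packages mitochondrial DNA and activates its transcription, had 7.44 with siEfp against 7.73 with siControl in Ishikawa and 9.20 with siEfp against 9.17 with siControl in HEC-1A cells, and TFB2M, a factor of mitochondrial transcription, was also lower in Ishikawa than in HEC-1A cells, with a difference of -1.0 between the lines. NRF1 (-0.02 in Ishikawa and -0.05 in HEC-1A cells), GABPA (-0.08 and -0.05), YY1 (0.12 and 0.01), ESRRA (0.11 and -0.11), GABPB1 (0.23 and 0.06), PPARGC1B (-0.04 and 0.14) and PPRC1 (-0.16 and 0.10) had small differences, and the dim ESRRG had 0.37 and -0.26. The part of these genes in the differences of the complex I genes was not tested.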

How the data were processed

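The authors hybridised RNA (150 ng total RNA per sample, biotin label) of 4 conditions to 4 Affymetrix arrays and deposited log2 RMA signals per probe set, for which the submitters' processing notes name Affymetrix Expression Console. The methods name an exon array, whereas the probe set numbers matched the platform annotation of another array of the same maker. Background correction, quantile normalization and summarisation in RMA make array distributions alike, so a shift of all genes would not show.

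Of 33297 probe sets, 19460 had 1 gene symbol, 1754 several and 12083 none, and only the first were used. Probe sets of a gene were averaged, giving 18417 genes. Genes kept the symbols of the annotation. Members and listed genes were also looked up by their current RefSeq symbols (19429 probe sets matched), and 0 member symbols differed. The 47 members had 51 probe sets, and 4 members had several. NDUFB4 has 2 with identical values, counted once.

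Within a line, siEfp minus siControl has 1 array per side and no test, and counts used a difference of 0.32 (25% up or 20% down). limma 3.58.1 (R 4.3.3) was fitted over all genes and 4 arrays with line and siRNA as terms (1 residual and 5.54 prior degrees of freedom), with Benjamini-Hochberg adjustment at 0.05. The script was tested on simulated data. The p-values and standard errors of this fit rest on how far the siRNA difference varied between the lines, together with a spread borrowed from all genes. No replicate arrays enter them. Values on all arrays are given for the 6 highest and the 6 lowest members in each line, for members past that difference in both lines, for the 10 largest called differences between the lines and for members whose probe sets disagree in sign. Further members are named for their role. The members, gene lists and tests were chosen with earlier results of these data known. Alternatives were centring, quantile normalizing again, a filter at the median signal, the brightest probe set, subunits alone, 1.5-fold, no second term, an intensity trend, an adjusted p of 0.1 and leaving out arrays. Promoter windows came from RefSeq (GRCh38.p14).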

Additional observations from a re-analysis of the deposited data

Results flagged for a closer look

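NDUFAF6 had a difference of -0.32 between siEfp and siControl in Ishikawa and of 0.22 in HEC-1A cells. It stood out because the 2 lines went in opposite directions, each by at least 0.2 on the log2 scale. The difference between the lines was not tested, since each condition has 1 array.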

How the results depend on the processing

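The median differences of the members kept their sign in both lines under centring, a second quantile normalization, the filter on dim genes, the brightest probe set and subunits alone. For 25 named members, 150 values were taken under centring, a second quantile normalization and the brightest probe set. Of these values 149 moved by less than 0.1, and the largest move was 0.12, that of NDUFS4 in HEC-1A cells (-0.31 with the brightest probe set). Centring moves all members of a line by the same small amount, and the brightest probe set can change only members with several probe sets. Most of the values therefore could not move by 0.1, and their count is no measure of robustness. The sign changed in 5 of the 150 values, all within 0.04 of 0 before. In 4 it changed after a second quantile normalization (NDUFAF3 and NDUFC1 in Ishikawa, NDUFAF4 and NDUFV2 in HEC-1A cells) and in 1 after centring (NDUFA2 in HEC-1A cells). Members higher by at least 0.32 with siEfp in Ishikawa numbered 4 after a second quantile normalization, against 2. With a limit of 1.5-fold in place of 0.32, 0 were higher in Ishikawa, against 2, and 1 in HEC-1A cells, against 5. The numbers lower at 1.5-fold stayed at 2 in Ishikawa and 1 in HEC-1A cells. The share of all genes past the limit under these 2 settings is not given here, so these counts have no background beside them. With subunits alone, 0 members were lower by 0.32 or more in Ishikawa and 0 in HEC-1A cells, since DMAC2 and NDUFAF7 are assembly factors. The siEfp fit called 1 member, DMAC2, without genes below the median signal, with an intensity trend and at an adjusted p under 0.1, against 0. The share of all genes called under these settings is not given here, so the call of DMAC2 has no background beside it. Between the lines, leaving out 1 array together with the siRNA term gave 4 to 10 members higher in Ishikawa, against 11 with all arrays and no siRNA term and 13 with it, and 0 to 2 lower, against 6 and 6. With subunits alone 3 were lower. Beyond fewer arrays, terms or genes, the cause was not tested. The labels give no replicate numbers, and the siEfp fit pairs the arrays through its line term, without which 0 members were called and DMAC2 had an adjusted p of 1.0, against 0.0698. A single array per condition limits every difference within a line.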

Other observations

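Some complex I genes lie on probe sets with several symbols and were left out of the counts. A probe set for NDUFC2 and the readthrough NDUFC2-KCTD14 differed by 0.15 (Ishikawa) and 0.02 (HEC-1A) between siEfp and siControl. One that lists NDUFS5 with 3 other genes, RPL10 among them, had -0.19 and 0.14. The probe set of KCTD14 and the same readthrough had -0.39 and 0.52. COXFA4, known earlier as NDUFA4 and now assigned to complex IV, had 8.07 with siEfp against 7.95 with siControl in Ishikawa and 7.55 with siEfp against 7.53 with siControl in HEC-1A cells. NDUFAF8 was not analysed here.

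DMAC2L, a gene with a name close to DMAC2 whose protein is a coupling factor of the ATP synthase, had -0.46 in Ishikawa and -0.04 in HEC-1A cells. NDUFV1-DT had a dim signal, between 3.82 and 4.13 on the 4 arrays, at 0.13 (Ishikawa) and 0.31 (HEC-1A) over siControl, beside 0.07 and -0.16 for NDUFV1.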
